A study of Homo sapiens with 2 samples.

Results

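YAP1 and TAZ (gene WWTR1), their DNA-binding partners TEAD1 and TEAD4, and 6 of their classic target genes were compared between AGS.W and AGS.veh. AGS is a gastric adenocarcinoma cell line. AGS.W cells carried a lentiviral vector with the coding region of WTX (gene AMER1), a tumour suppressor encoded on the X chromosome, and AGS.veh cells carried the control vector. Both were stable lines selected with puromycin, so that each is a single selected population of 1 cell line. The target genes were CYR61 (now CCN1), CTGF (now CCN2), ANKRD1, AMOTL2, LATS2 and AXL. Members were taken by name, as every probe set that the annotation of the Affymetrix U133 Plus 2.0 array assigns to 1 of these symbols alone. This gave 22 probe sets for all 10 genes, of 54613 probe sets and 19775 named genes in all. Each line was measured on 1 array, so no replicate error, p-value or FDR exists, and every value below is a difference between a pair of cultures.

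YAP and TAZ are coactivators at the end of the Hippo pathway. The kinases MST1 and MST2 (genes STK4 and STK3) activate LATS1 and LATS2, which phosphorylate YAP and TAZ and so hold them in the cytoplasm. When this phosphorylation is low, as at low cell density or on a stiff matrix, both enter the nucleus and switch on genes through TEAD factors. Some of these genes, such as AMOTL2 and LATS2, encode inhibitors of YAP and TAZ. The activity of YAP and TAZ is set mainly at the protein, which the arrays did not measure. In the stomach the pathway is known as a control of epithelial growth.

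The values were log2 signals per probe set as the authors had normalized them, with a median of 4.02 in AGS.W against 4.03 in AGS.veh over all probe sets. A signal near or below this median may be background. A label of the extracted RNA names brain tissue, whereas the other labels and the methods name AGS cells. Of 11 markers of epithelium and stomach, 8 reached the median on 1 array or both, among them KRT8 and KRT18, and CDH1, KRT19 and TFF1 did not. Of 12 measured brain markers 7 reached it, and GFAP, AQP4, S100B, SYT1 and NEFL did not. SNAP25, a neuronal gene, was the only gene of the 3 marker lists over 2-fold apart, at 3.57 in AGS.veh and 5.15 in AGS.W. Of 7 fibroblast markers 4 reached the median, as did 12811 of all 19775 named genes. The counts of the 3 lists lie near that share, so they do not identify the tissue. What part these markers have in the differences below was not tested. WTX itself was read by 1 probe set, at 3.86 in AGS.veh and 3.70 in AGS.W, below the median of both arrays, and it may lie outside the coding region that the vector carries, so the labels remain unchecked by it.

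Most of the members were slightly lower in AGS.W, and AMOTL2 stood out with a 2.26-fold lower signal. Of the 22 probe sets, 15 were lower in AGS.W, 6 were higher and 1 had the same value on both arrays. As AGS.W minus AGS.veh, the median log2 difference was -0.29 over these probe sets and 0.00 over all probe sets. Of all probe sets 42.9% were lower in AGS.W, a share held down by 6900 probe sets with identical values. Among the 19 member probe sets that reached the median on both arrays, 13 (68.4%) were lower, against 49.0% of the 26115 probe sets on the array that did so. At least 2-fold lower were 2 of the 22, those of AMOTL2 and ANKRD1, where the share of all probe sets was 1.12%, and none was 2-fold higher, where it was 1.07%. Of the 10 genes, 9 reached the median with at least 1 probe set. ANKRD1 did not, nor did 1 probe set each of TEAD1 and LATS2, so that AMOTL2 was the single probe set of 19 with signal that passed 2-fold, against 1.44% of all such probe sets that were 2-fold lower. At 1.5-fold, the probe sets of AMOTL2, ANKRD1, TEAD1 (214600_at) and LATS2 (223380_s_at) were lower, and that of AXL (202686_s_at) was higher, or 4 and 1 of 22, where the shares of all probe sets were 4.72% and 4.42%. With so few members past either threshold, these counts describe single genes and not the set.

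**Figure D1:**
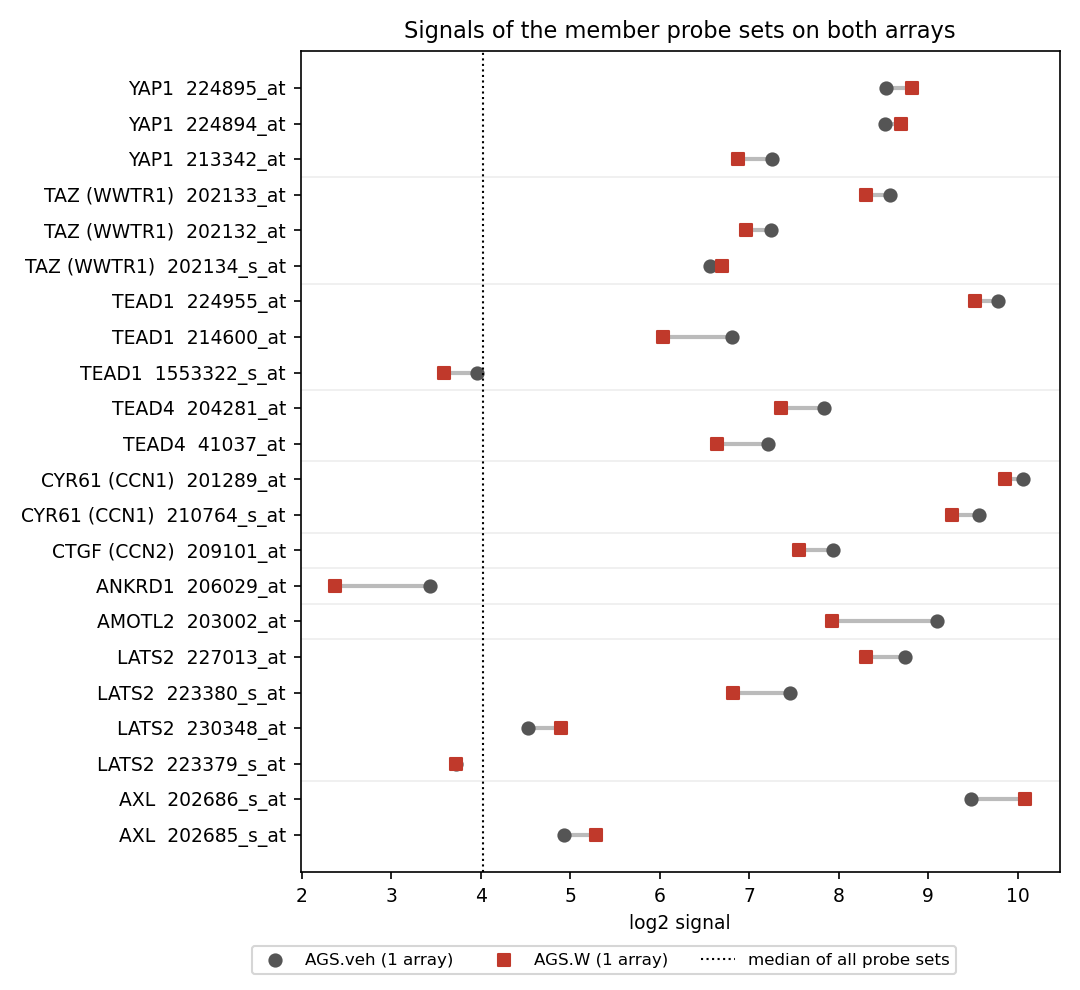
Log2 signal (horizontal axis) of each of the 22 member probe sets (vertical axis) in AGS.veh, drawn as circles, and in AGS.W, drawn as squares. Each line has 1 array, with the median of all probe sets as a dotted line. The widest gap is that of AMOTL2, from 9.10 in AGS.veh to 7.92 in AGS.W, whereas ANKRD1 lies wholly to the left of the dotted line.

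TEAD factors bind DNA at sites with the core GGAATG, and the sequences before the starts of 3 target genes that hold this core are shown. RefSeq windows of assembly GRCh38.p14, 250 bases before to 50 bases after an annotated start, were at hand for 7 of the 10 genes, and not for TEAD1, TEAD4 and CYR61. GGAATG was searched on both strands, as GGAATG or CATTCC. Of 35116 windows of all genes, 11.9% held it in the 250 bases before the start and 14.0% in the whole window. CTGF held 3 copies before its start and ANKRD1 2. At least 3 copies were found in 0.0826% of all windows and at least 2 in 0.94%. AMOTL2 held 1 copy before the second of its annotated starts and none before the other. The 250 bases before these starts read as follows from 5′ to 3′ on the strand of the gene, which is the minus strand for all 3, with the core in capitals.
CTGF, chr6:131951373-131951622: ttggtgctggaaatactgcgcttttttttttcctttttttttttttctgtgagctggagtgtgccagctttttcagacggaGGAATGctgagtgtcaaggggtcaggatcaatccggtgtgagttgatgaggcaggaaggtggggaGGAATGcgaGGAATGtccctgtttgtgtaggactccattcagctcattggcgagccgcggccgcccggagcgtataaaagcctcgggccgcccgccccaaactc
ANKRD1, chr10:90921088-90921337: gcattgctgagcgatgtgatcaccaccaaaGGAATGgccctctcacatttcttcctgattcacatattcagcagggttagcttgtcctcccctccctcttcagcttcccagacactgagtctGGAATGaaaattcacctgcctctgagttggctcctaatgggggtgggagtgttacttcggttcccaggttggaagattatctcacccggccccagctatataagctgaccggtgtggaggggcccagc
AMOTL2, chr3:134374448-134374697: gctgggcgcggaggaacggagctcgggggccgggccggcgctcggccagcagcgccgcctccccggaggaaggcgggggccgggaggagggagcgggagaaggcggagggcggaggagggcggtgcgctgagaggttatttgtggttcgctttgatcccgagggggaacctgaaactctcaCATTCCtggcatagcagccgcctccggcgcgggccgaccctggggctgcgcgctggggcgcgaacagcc

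The remaining genes held at most 1 copy a window. YAP1 held it 162 bases before its start, LATS2 10 bases after its start, in transcribed sequence, and AXL 212 bases before the second of its annotated starts, where it is read on the opposite strand. Neither of the TAZ windows held it. Stretches of 30 bases around these copies are shown on the strand of the gene, so that the flanks can be set beside those of CTGF.
YAP1, chr11:102110273-102110302, plus strand: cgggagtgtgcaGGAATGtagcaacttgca
LATS2, chr13:21061560-21061589, minus strand: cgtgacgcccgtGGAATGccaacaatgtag
AXL, chr19:41226531-41226560, plus strand: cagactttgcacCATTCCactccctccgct

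By gene, 6 of the 7 members with a window held the core in at least 1 of them, against 16.7% of all 27305 genes. The list of other YAP/TAZ targets had windows for 30 genes, and 14 of them held it in at least 1. Some of these genes are known as TEAD targets in part because of such sites, while YAP1 and TAZ are the coactivators. The shares may thus reflect how targets came to be known, which was not tested, and they are not a result of the arrays. A match is a string of letters and not a measured binding site.

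**Figure D2:**
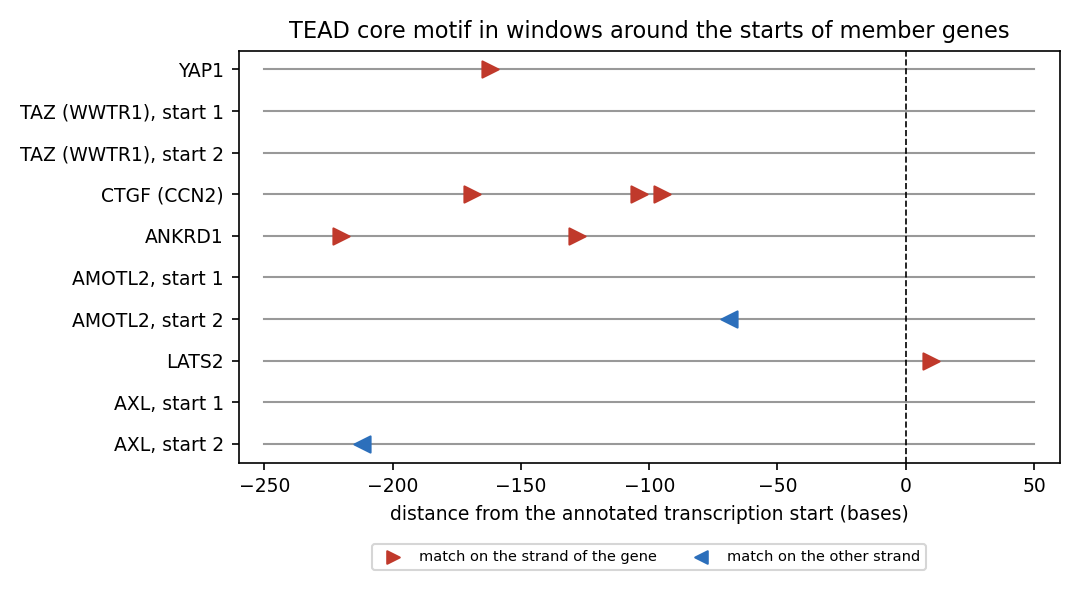
Positions of the core GGAATG (horizontal axis, bases from the annotated transcription start, which is the dashed line) in the RefSeq windows of 7 member genes, with a line for each annotated start. Right-pointing triangles are matches on the strand of the gene and left-pointing ones matches on the other strand. CTGF has 3 matches and ANKRD1 2, and both TAZ windows have none.

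The coactivator genes themselves were little apart. YAP1 was read by 3 probe sets without a shared direction. On the log2 scale the brightest, 224895_at, had 8.82 in AGS.W against 8.53 in AGS.veh, a difference of 0.29. The next, 224894_at, had 8.70 and 8.52, a difference of 0.17, while 213342_at had 6.88 and 7.26, a difference of -0.38. As the mean of its probe sets YAP1 had a difference of 0.03, which is smaller than the range of 0.67 between them. TAZ was likewise split. Its probe sets 202133_at, with 8.30 and 8.57, and 202132_at, with 6.96 and 7.24, were lower by 0.27 and 0.28 on the log2 scale. The third, 202134_s_at, had 6.69 and 6.56, a difference of 0.13. Probe sets of the _s_at type can match more than 1 transcript.

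TEAD1 and TEAD4, whose products bind DNA and carry YAP and TAZ to their targets, were lower in AGS.W on every probe set that reached the array medians. TEAD4 had 7.36 in AGS.W against 7.84 in AGS.veh on 204281_at, a difference of -0.48, and 6.64 and 7.21 on 41037_at, a difference of -0.57. The gap of 0.09 between both TEAD4 probe sets was small beside their shared difference. For TEAD1 the brightest probe set, 224955_at, had 9.52 and 9.79, a difference of -0.26. The dimmer 214600_at had 6.04 and 6.80, a difference of -0.76, or 1.69-fold lower. The third, 1553322_s_at, had 3.59 and 3.96, both below the array medians, and a difference of -0.004 with both raised to the median. Between 224955_at and 214600_at the size of the TEAD1 difference thus depended on the probe set, while its direction did not. Neither gene reached 2-fold on any probe set. Of the other members of the family, TEAD2 had 5.55 and 5.84 on its brightest probe set, a difference of -0.29, and 0.13 and -0.18 on others above the signal filter. TEAD3 had 5.38 and 5.45 on its single probe set, a difference of -0.07.

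CYR61 and CTGF, which encode secreted matricellular proteins of the CCN family and are the targets most often used to read YAP and TAZ activity, were both less than 1.5-fold apart. CYR61 had 9.86 in AGS.W against 10.06 in AGS.veh on 201289_at, a difference of -0.20, and 9.27 and 9.57 on 210764_s_at, a difference of -0.31. CTGF was read by 209101_at alone, with 7.56 and 7.94, a difference of -0.39 and a 1.31-fold lower signal. All 3 probe sets of these genes were thus lower in AGS.W, by amounts that many other probe sets on the array also showed. For CTGF, 10.5% of all probe sets had a lower difference. ANKRD1, an ankyrin repeat protein of muscle and a sensitive YAP target in epithelial cells, had 2.37 and 3.43 on its single probe set. Its difference of -1.06 lay wholly below the medians of both arrays, and with signals below the median set to the median it was -0.004, so that no size can be given for it.

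AMOTL2 and LATS2, the targets that encode inhibitors, were lower on their brighter probe sets, and AMOTL2 held the largest difference of all members. AMOTL2, an angiomotin-like protein that binds YAP and keeps it out of the nucleus, had 7.92 in AGS.W against 9.10 in AGS.veh on its single probe set, a difference of -1.18. Only 0.665% of all probe sets had a lower difference. With 1 probe set, no further reading of AMOTL2 was at hand. LATS2, the kinase that phosphorylates YAP and TAZ, was read by 4 probe sets. Its brightest, 227013_at, had 8.31 and 8.74, a difference of -0.43, and 223380_s_at had 6.82 and 7.45, a difference of -0.63. Against these, 230348_at had 4.90 and 4.53, a difference of 0.37, and 223379_s_at had 3.73 on both arrays. Both of the brighter LATS2 probe sets were lower, and the dimmer ones did not share this direction. As the mean of its 4 probe sets LATS2 had a difference of -0.17.

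AXL, a receptor tyrosine kinase for the ligand GAS6 and a target of YAP, was the only target gene among the members that was higher in AGS.W. Its brighter probe set, 202686_s_at, had 10.09 in AGS.W against 9.48 in AGS.veh, a difference of 0.61 and a 1.52-fold higher signal. The other, 202685_s_at, had 5.29 and 4.94, a difference of 0.35. Both probe sets of AXL were higher, and both are of the _s_at type. Counted by the brightest probe set of each gene, 8 of the 10 members were lower in AGS.W, with YAP1 and AXL higher, and the median was -0.33. Without ANKRD1, 7 of the 9 genes that reached the median were lower, with a median of -0.27, against 50.5% of the 12811 genes that did so. All probe sets were lower for 6 genes, TEAD1, TEAD4, CYR61, CTGF, ANKRD1 and AMOTL2, of which the last 3 have a single probe set each. ANKRD1 and 1 probe set of TEAD1 lay below the array medians, and the share of all genes with all probe sets lower was not computed. AXL was the 1 gene with all probe sets higher, and YAP1, TAZ and LATS2 had both directions. Genes with the TEAD core shown above thus lay on both sides of 0, among them AMOTL2 with -1.18 and 1 copy, CTGF with -0.39 and 3 copies and AXL with 0.61 and 1 copy.

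Without replicates, the spread between probe sets of 1 gene on the same arrays shows how far probe sets disagree. It gives no biological scale, and error that all probe sets of an array share is not in it. Over 5609 genes with several probe sets above the median on both arrays, the differences of the 2 brightest lay 0.17 apart at the median and 0.60 at the 90th percentile, and had 1 direction in 68.4% of genes. For the members this gap ranged from 0.01 for TAZ to 0.50 for TEAD1. Of the 22 member probe sets, 17 had a difference smaller than 0.60 in size. The rest are the 4 lower and 1 higher that passed 1.5-fold, a size close to 0.60. Of all probe sets, 4.72% were at least 1.5-fold lower and 4.42% at least 1.5-fold higher. Against other probe sets of like signal, in 20 bins of mean signal, AMOTL2 lay outside the middle 95%, and 20 of the other probe sets lay inside. ANKRD1 lay outside as deposited, but both of its signals were below the array medians. In the bin of AMOTL2 this middle range ran from -0.86 to 1.01.

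**Figure D3:**
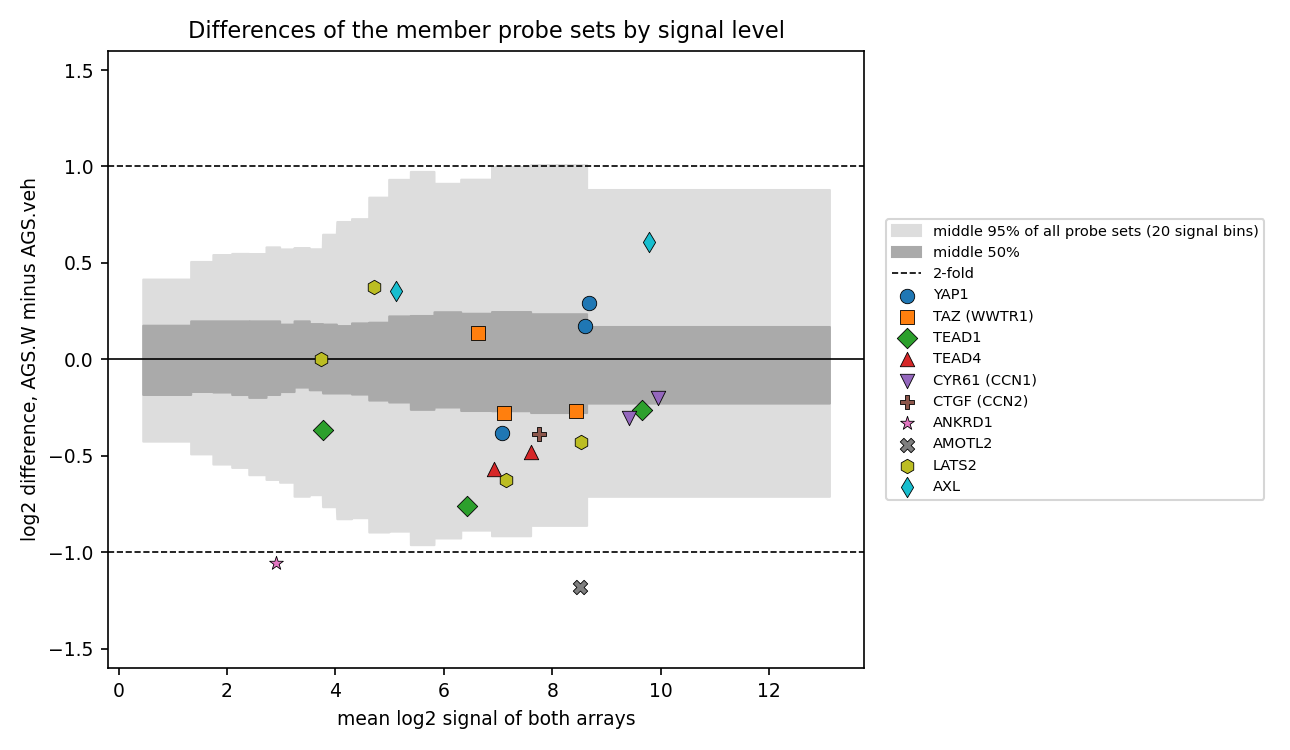
Log2 difference AGS.W minus AGS.veh (vertical axis) against the mean log2 signal of both arrays (horizontal axis) for the 22 member probe sets, a symbol for each gene. Grey steps show the middle 95% and the middle 50% of all probe sets in 20 bins of signal, and dashed lines show 2-fold. AMOTL2 at -1.18 lies below the grey area, as does ANKRD1 at -1.06, whose signals are below both array medians, and the others lie inside it.

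The rest of the pathway was described with 3 lists, each gene by its brightest probe set. A signal filter kept genes that reached the median on at least 1 array, which left the 12811 genes, 1.94% of them at least 2-fold lower and 1.83% at least 2-fold higher in AGS.W, with a median difference of -0.01. Of 44 Hippo kinases and upstream regulators, 36 passed the filter, 23 of them lower and 13 higher, with 3 at least 2-fold lower, 1 at least 2-fold higher and a median of -0.13. As means of all probe sets of a gene, 18 of the 36 were lower, 0 were 2-fold higher and the median was 0.00134. The lean to lower values thus depended on how probe sets were summarized. These means include dim probe sets below the filter. LATS1, with 1 of its 4 probe sets above the filter, had -0.13 on the brightest and 0.03 as the mean. Means of the probe sets above the filter alone are not given, nor is the share of all genes lower as means. FRMD6, a FERM-domain protein upstream of the kinases, had 5.90 in AGS.W against 7.82 in AGS.veh, a difference of -1.92, and -2.04 on its other probe set. AJUBA, a LIM protein that binds LATS kinases and inhibits them, had 7.13 and 8.45, a difference of -1.32, and -1.19 on another. On the third above the filter AJUBA lay below the median in AGS.W and had -1.54 with that signal raised to the median. WWC3, of the KIBRA family that activates LATS, had 5.06 and 6.31, a difference of -1.25, and -1.37 on its other probe set. FRMD6, AJUBA and WWC3 were thus 2-fold lower on each of their probe sets above the filter, and they include both an inhibitor of LATS and activators of the pathway. On the higher side PATJ, a polarity protein of the Crumbs complex, had 5.96 and 4.85, a difference of 1.11. Its other probe set above the filter was dim in AGS.veh and had 0.06 with that signal raised to the median. AMOTL1, a close relative of AMOTL2, had 7.84 and 7.13, a difference of 0.71, and 0.71 and 0.41 on others above the filter. RASSF1, which binds the MST kinases, had 8.32 and 7.79, a difference of 0.53. AMOTL1 and AMOTL2 thus stood on opposite sides.

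Of the core kinases, LATS2 is given above with the members, at -0.43 on its brightest probe set. The others, named here for their role after their values were seen, were closer to equal on their brightest probe sets. The log2 differences were -0.12 for STK3, -0.04 for STK4 and -0.13 for LATS1. Their scaffold and cofactor genes SAV1 and MOB1A had -0.20 and -0.39, MOB1B had 0.26, and NF2, the tumour suppressor merlin, had -0.46. None of these genes was 1.5-fold apart on its brightest probe set.

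Of 16 nuclear partners of YAP, TAZ and TEAD, 11 passed the filter, 8 of them lower and 3 higher, with a median of -0.13. VGLL3, a vestigial-like cofactor that competes for TEAD, had 3.57 in AGS.W against 4.60 in AGS.veh, a difference of -1.04. It lay below the median in AGS.W, and raising that signal to the median left a difference of -0.58. VGLL4, which represses TEAD, had 6.71 and 6.85, a difference of -0.14. VGLL1 and VGLL2 did not pass the filter, and their values of 3.81 and 2.79 were the same on both arrays. SMAD3, a mediator of TGF-beta signals, had 6.69 and 7.05, a difference of -0.37, and -0.66 and -0.06 on others above the filter. The higher genes were TP73, a p53 relative, with a difference of 0.11, ZEB1 with 0.05 and MED1 with 0.03. SMAD2, also a mediator of TGF-beta signals and named after its values were seen, was split between probe sets, with -0.20 on the brightest, 1.08 on another and between 0.10 and 0.40 on 3 others.

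Other target genes of YAP and TAZ reached larger differences than any member. Of 45 genes listed, 36 passed the filter, 24 of them lower and 12 higher, with a median of -0.22, or of -0.11 with 23 lower as means of all probe sets. At least 2-fold lower were 5 and at least 2-fold higher 1. TGFB2, a TGF-beta ligand, had 4.12 in AGS.W against 6.22 in AGS.veh, a difference of -2.10. Its other probe set above the filter was below the median in AGS.W, and raising that signal to the median left -0.75. CCND1, cyclin D1, had 6.66 and 8.46, a difference of -1.81, and -1.91 on its other probe set. FJX1, a Golgi kinase homologue of four-jointed, had 4.73 and 6.51, a difference of -1.78. THBS1, a matrix glycoprotein, had 5.29 and 7.02, a difference of -1.73, and between -1.68 and -0.03 on 3 others above the filter, the first of these with a dim AGS.W signal raised to the median. AJUBA, given above, belongs to this list too. On the higher side PTGS2, cyclooxygenase-2, had 9.50 and 7.79, a difference of 1.71, and 1.82 on its other probe set. NT5E, the nucleotidase CD73, had 6.88 and 6.07, a difference of 0.81, but between -0.32 and -0.03 on its 3 others. ADAMTS1, a secreted protease, had 5.48 and 4.85, a difference of 0.64, and 0.30 on its other probe set with a dim AGS.veh signal raised to the median. Target genes thus lay on both sides, and CCND1 and PTGS2 passed 2-fold in opposite directions on both of their probe sets. The list was written with some of these values known, so its counts do not stand as independent support, and many of its genes respond to other pathways as well.

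**Figure D4:**
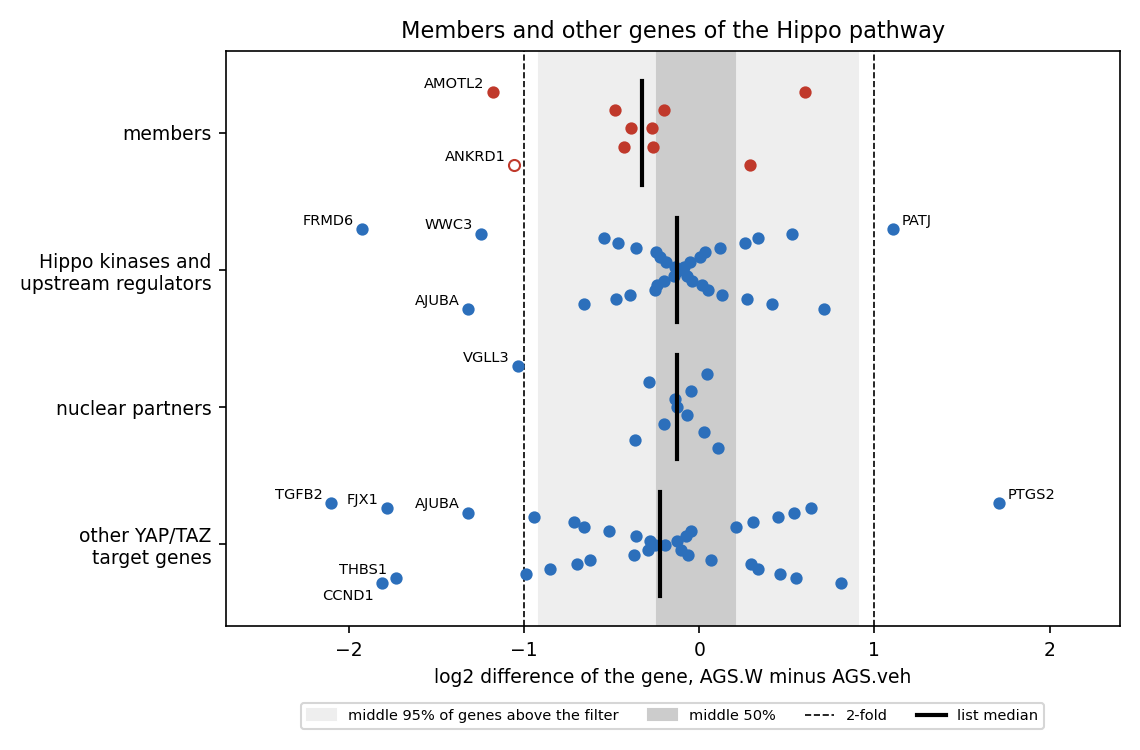
Log2 difference AGS.W minus AGS.veh (horizontal axis) of each gene, as its brightest probe set, for the 10 members and for the genes of 3 lists that passed the signal filter. Black bars are list medians of -0.33, -0.13, -0.13 and -0.22 from top to bottom, grey areas are the middle 95% and 50% of 12811 genes, dashed lines are 2-fold, and the open circle is ANKRD1, below the median of both arrays. Labels name the genes at least 2-fold apart. Without ANKRD1, which did not pass the filter, the median of the members is -0.27.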

How the data were processed

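RNA of AGS.W and AGS.veh was hybridised to 1 Affymetrix U133 Plus 2.0 array per line. The authors deposited log2 signals per probe set, already normalized between arrays. RMA and MAS5 are named in the submitters' processing notes, without roles or versions. After removal of 62 control probe sets, 54613 remained, and for each the AGS.veh signal was subtracted from the AGS.W signal. The platform annotation gave 1 gene for 41091, several for 1801 and none for 11721, and none of the probe sets with several genes held a member. Symbols were updated through RefSeq gene identifiers. The fold threshold of the methods, 2, was used, and their FDR needs replicates. Members and lists were chosen with earlier results of these data known. All probe sets of the members are given, and of each list the genes at least 2-fold apart or up to 3 in each direction, with TEAD2, TEAD3 and VGLL1 to VGLL4 always given. Lists name genes with a probe set of their own, and list members without one were not analysed here. The number of arrays limits the precision. As alternatives, arrays were quantile normalized, centred on the median or corrected with a lowess curve (span 0.3), and the others were signal filters, a floor at the array median, other fold thresholds and other summaries of probe sets. Software was Python 3.11.15 with matplotlib 3.10.9, statsmodels 0.14.6, pandas 2.3.3 and numpy 2.4.6.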

Additional observations from a re-analysis of the deposited data

How the results depend on the processing

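No paired analysis was possible because AGS.W and AGS.veh have a single array apiece, and for the same reason none was left out. Moves were judged by the robust spread of the 1000 probe sets nearest in signal. Median centring, quantile normalization and the lowess curve moved no member probe set by more than 0.04 on the log2 scale and changed none of the counts by over 1.5 times. Of the 22 member probe sets, 1 was at least 2-fold lower among those above the median on at least 1 array or on both, and 1 with a floor at the median, which was added after the data were seen. At 1.5-fold 4 were lower and 1 higher, and at 3-fold 0 were lower. Without the _x_at and _s_at types, the median of the members was -0.38, and AXL had no probe set. Of all probe sets, 376 above the median on both arrays were 2-fold lower. At 1.5-fold 2576 were lower and 2415 higher, and at 3-fold 120 and 115. As means of all probe sets, 0 Hippo regulators were 2-fold higher and 0 nuclear partners 2-fold lower, and the medians were 0.00134 for Hippo regulators and -0.11 for other targets. The last was also -0.11 without a signal filter. Of nuclear partners, 0 were 2-fold lower above the median on both arrays or with the floor. At 1.5-fold, 2 Hippo regulators were higher, and of other targets 12 were lower and 3 higher. The share of all genes above the filter was computed at 2-fold only, so these 1.5-fold counts have no background. Over single members, 2 of 88 alternative values of probe sets lay outside the spread, both on dim ones of TEAD1 and ANKRD1 with the floor. Of 29 alternative values of genes, 2 did, YAP1 at -0.38 and TEAD1 at -0.76 with the probe set of largest difference, and that of YAP1 changed sign. The planned offset was not run, since the values were on the log2 scale already. With 1 array per line, the state of the cultures at harvest and an effect of WTX cannot be told apart.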
